A study of Mus musculus with 24 samples.

Results

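The lower exposure to diesel exhaust (DE) was compared with filtered air in mice that had received saline, in whole lung. The comparison holds 8 of the 24 arrays of the series: 4 arrays titled 0.5DE/saline (DE500_saline) and 4 arrays titled Air/saline (Air_saline). Members were taken by these titles, without regard to any measured value. DE500_saline mice breathed 500 ug/m3 of DE and Air_saline mice breathed filtered air, each for 4 hours a day over 5 days, and both groups were given saline on 3 days. The other 4 groups, with 4 arrays each, were DE2000_saline (2000 ug/m3 with saline), DE2000_OVA and DE500_OVA (the same DE levels with 100 ug of ovalbumin, OVA, on 3 days) and Air_OVA. The labels give no strain, sex or age and do not say whether the replicates of a group were separate animals. The p-values of the fitted model therefore measure the spread between samples within groups, pooled over all 24 arrays and not these 8 alone. Each value is a MAS5 signal, a linear intensity that summarises the probes of 1 probe set, reported here as log2. Differences are DE500_saline minus Air_saline, and ± on a difference is its standard error (SE) from this pooled spread.

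Diesel exhaust is a mixture of gases and carbon particles that carry polycyclic aromatic hydrocarbons. Such hydrocarbons can bind the aryl hydrocarbon receptor, which switches on enzymes such as Cyp1a1, and oxidants can release NRF2, which switches on genes for glutathione synthesis and quinone reduction. Inhaled particles are also known to draw neutrophils into the airspaces and to raise acute phase proteins in lung epithelium. The comparison asks which of these or other transcripts differed after the lower dose alone, without allergen.

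The 8 arrays were not alike in the evenness of signal along a transcript. An Affymetrix array carries probe sets at the 3' and the 5' end of a few long-lived transcripts, and RNA that is cut or copied incompletely gives more 3' than 5' signal. The log2 ratio of 3' to 5' signal of Gapdh was 4.91, 0.36, 0.08 and 4.34 in DE500_saline replicates 1 to 4, and 1.48, 0.79, 3.05 and 1.64 in Air_saline replicates 1 to 4. DE500_saline thus held the 2 highest and the 2 lowest of the 8 ratios, with all 4 air arrays between them. The actin ratio followed the same order within DE500_saline, at 3.85, 0.31, 0.12 and 3.19, against 1.96, 1.18, 2.75 and 1.08 in Air_saline. The signal of the B1 repeat, which lies in many unspliced transcripts, was 13.83, 12.08, 12.30 and 13.68 in DE500_saline and 12.83, 12.49, 13.35 and 12.83 in Air_saline.

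The group means of these controls differed by less than their spread. The average of both ratios, actin and Gapdh, called the ratio from here on, was 2.15 ± 2.24 in DE500_saline and 1.74 ± 0.83 in Air_saline (SD, n = 4 each; exact two-sided permutation test, p = 0.771). Over 7 control measures the Benjamini-Hochberg (BH) adjusted p was 0.886 for each, and 4 arrays against 4 cannot give a p below 0.0286. The transferrin receptor and pyruvate carboxylase ratios, added after the data had been seen, were among them (differences of 0.25 and 0.16). In a model over all 24 arrays, 5145 of 13576 probe sets had a slope on the ratio that passed at adjusted p < 0.05 (37.9%). Each group has its own mean in that model, so the slope rests on differences in ratio within groups. These were widest in DE500_saline (0.10 to 4.38), so the slope leans mostly on the 4 arrays of that group. Array pairs correlated between 0.848 and 0.970 within DE500_saline, and between 0.930 and 0.971 within Air_saline. Each comparison was therefore fitted without and with the ratio as a covariate.

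**Figure D1:**
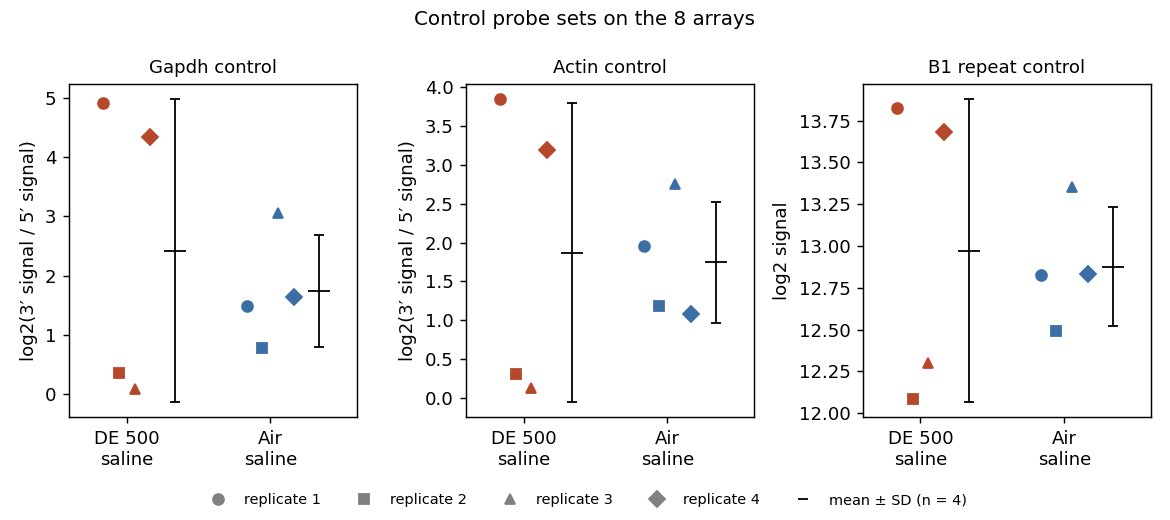
Log2 3'/5' signal ratios of Gapdh (left) and actin (centre) and log2 signal of the B1 repeat control (right) on the 8 arrays. Each point is 1 array, its shape gives the replicate number, and bars are the mean ± SD (n = 4). DE500_saline replicates 1 and 4 lie at 4.91 and 4.34 for Gapdh and replicates 2 and 3 at 0.36 and 0.08, with the air arrays from 0.79 to 3.05.

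All samples carried the markers of lung. Sftpc, the surfactant protein of alveolar type 2 cells, had mean signals of 29820 in DE500_saline and 30410 in Air_saline, and Scgb1a1, the secretory protein of club cells, had 26460 and 25120 in the same order. Ager of type 1 cells gave 12450 and 13560, and the endothelial receptor Kdr gave 7457 and 6414. Atrial and ventricular muscle genes were present too, such as Myh6, the heavy chain of cardiac myosin, with 3288 in DE500_saline and 3545 in Air_saline. Of the markers looked for, Marco of macrophages and Hba-a1 of red cells were too dim to be tested.

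Without the ratio in the model, 1 gene was called between DE500_saline and Air_saline. Tmod3, which caps the slow-growing end of actin filaments, was called higher in DE500_saline, and it was 1 of 13576 probe sets tested (0.00737% called at adjusted p < 0.05). At unadjusted p < 0.05, 1073 probe sets passed (7.9%), of which 523 were higher and 550 lower. On genes, each read through its most strongly expressed probe set, 230 of 8315 were higher (2.77%) and 377 lower (4.53%) at that level. With the ratio in the model 75 probe sets were called (0.552%), 56 higher (0.412%) and 19 lower (0.14%), and 1900 passed at unadjusted p < 0.05 (14%). They gave 17 genes that rose (0.204% of 8315) and 10 that fell (0.12%).

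Tmod3 signals were 10.77, 10.02, 10.01 and 10.45 in DE500_saline replicates 1 to 4, and 8.87, 9.06, 8.60 and 9.83 in Air_saline. Every DE500_saline array lay above every air array, and Air_saline replicate 4 was the nearest to them. The rise was 1.22 ± 0.20, or 2.34-fold (limma, adjusted p = 0.0345), and 1.20 ± 0.19 with the ratio in the model (adjusted p = 0.00905). The call without the ratio rested on single arrays: the adjusted p was 0.179 without DE500_saline replicate 1, 0.121 without replicate 4, and 0.303, 0.186 and 0.286 without Air_saline replicates 1, 2 and 3. Without Air_saline replicate 4 the rise was 1.47 (adjusted p = 6.96e-05). With the ratio in the model, leaving out DE500_saline replicate 1 gave an adjusted p of 0.0523, and leaving out Air_saline replicates 1 or 3 gave 0.0803 and 0.0880. With DE500_saline replicates 1 and 4 left out together, Tmod3 without the ratio gave 0.93 (adjusted p = 0.0551) and Tmod3 with the ratio gave 0.57 (adjusted p = 0.907), neither called. The 2 other probe sets of Tmod3 read 0.66 ± 0.42 and -0.03 ± 0.42 (adjusted p = 0.779 and 0.994), or 0.87 ± 0.22 and 0.21 ± 0.11 with the ratio (adjusted p = 0.0684 and 0.410).

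Fyttd1, an adaptor that hands mRNA to the nuclear export receptor, had the largest rise among the 17 genes called higher with the ratio. Its signals were 9.93, 10.42, 10.36 and 10.14 in DE500_saline, against 7.83, 8.64, 7.75 and 9.79 in Air_saline. The groups did not overlap, and Air_saline replicate 4 again lay near the DE500_saline arrays. The difference was 1.71 ± 0.31 without the ratio (adjusted p = 0.0658) and 1.79 ± 0.28 with it, or 3.47-fold (adjusted p = 0.00905). With the ratio, the adjusted p was 0.0803 without Air_saline replicate 1 and 0.0880 without replicate 3. Its other probe set gave -0.15 ± 0.23 with the ratio (adjusted p = 0.811), so the probe sets of this gene disagreed.

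Atp8a1, a flippase that moves phosphatidylserine to the inner face of membranes, read 11.95, 12.37, 12.01 and 12.32 in DE500_saline, and 9.80, 10.49, 10.31 and 12.01 in Air_saline. Air replicates 1 to 3 were well below all DE500_saline arrays, while air replicate 4 lay among them. The rise was 1.51 ± 0.29 with the ratio (adjusted p = 0.0233) and 1.51 ± 0.30 without it (adjusted p = 0.0658). Cert1, which carries ceramide from the endoplasmic reticulum to the Golgi, rose by 1.58 ± 0.35 with the ratio (adjusted p = 0.0359), against 1.44 ± 0.42 without it (adjusted p = 0.263). Its DE500_saline values of 8.28, 9.53, 9.34 and 8.48 overlapped the air values of 7.20, 7.31, 6.48 and 8.89 through air replicate 4 alone.

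Eif2ak2, the kinase PKR, which senses double-stranded RNA and arrests translation, had signals of 8.97, 8.21, 8.02 and 8.43 in DE500_saline and 6.77, 7.18, 7.05 and 7.72 in Air_saline. No air array reached the lowest DE500_saline array. The rise was 1.21 ± 0.23 with the ratio, or 2.31-fold (adjusted p = 0.0233), and the difference was 1.23 ± 0.23 without it (adjusted p = 0.0658). Of 12 genes of double-stranded RNA sensing and translation arrest tested, Eif2ak2 was the 1 called, and 6 had values above 0 (median -0.02). Of 23 interferon-stimulated genes it was again the 1 called. There 8 lay above 0 (median -0.11) and the interferon-induced GTPase Irgm1 (-0.41 ± 0.14, adjusted p = 0.399) and the transcription factor Irf7 (-0.41 ± 0.18, adjusted p = 0.545) were below 0.

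Zfp36l1, a zinc finger protein that brings AU-rich mRNAs to decay, had the smallest SD within DE500_saline among the 17 genes that rose. It read 11.79, 11.82, 11.90 and 11.91 in DE500_saline, against 11.09, 11.15, 10.76 and 11.45 in Air_saline. The groups did not overlap, and the spread within DE500_saline (SD 0.06) was below that within air (SD 0.28). The rise was 0.74 ± 0.14 with the ratio (adjusted p = 0.0233), and the value without it was also 0.74 ± 0.14 (adjusted p = 0.0658). Its second probe set was called with the ratio too, at 1.06 ± 0.21 (adjusted p = 0.0266). Among 20 genes of mRNA decay, 10 lay above 0 (median 0.01), and Cnot3, a subunit of the main deadenylase, gave -0.705 ± 0.25 (adjusted p = 0.410).

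Tbx4, a transcription factor of lung mesenchyme, read 10.02, 9.90, 9.94 and 9.62 in DE500_saline and 9.01, 9.13, 8.89 and 9.34 in Air_saline. Every DE500_saline array lay above every air array. The rise was 0.80 ± 0.14 with the ratio (adjusted p = 0.0233), against 0.77 ± 0.15 without it (adjusted p = 0.0658). The other 20 mesenchymal genes tested held no call, and the list of 21 had 11 values above 0 (median 0.02).

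**Figure D2:**
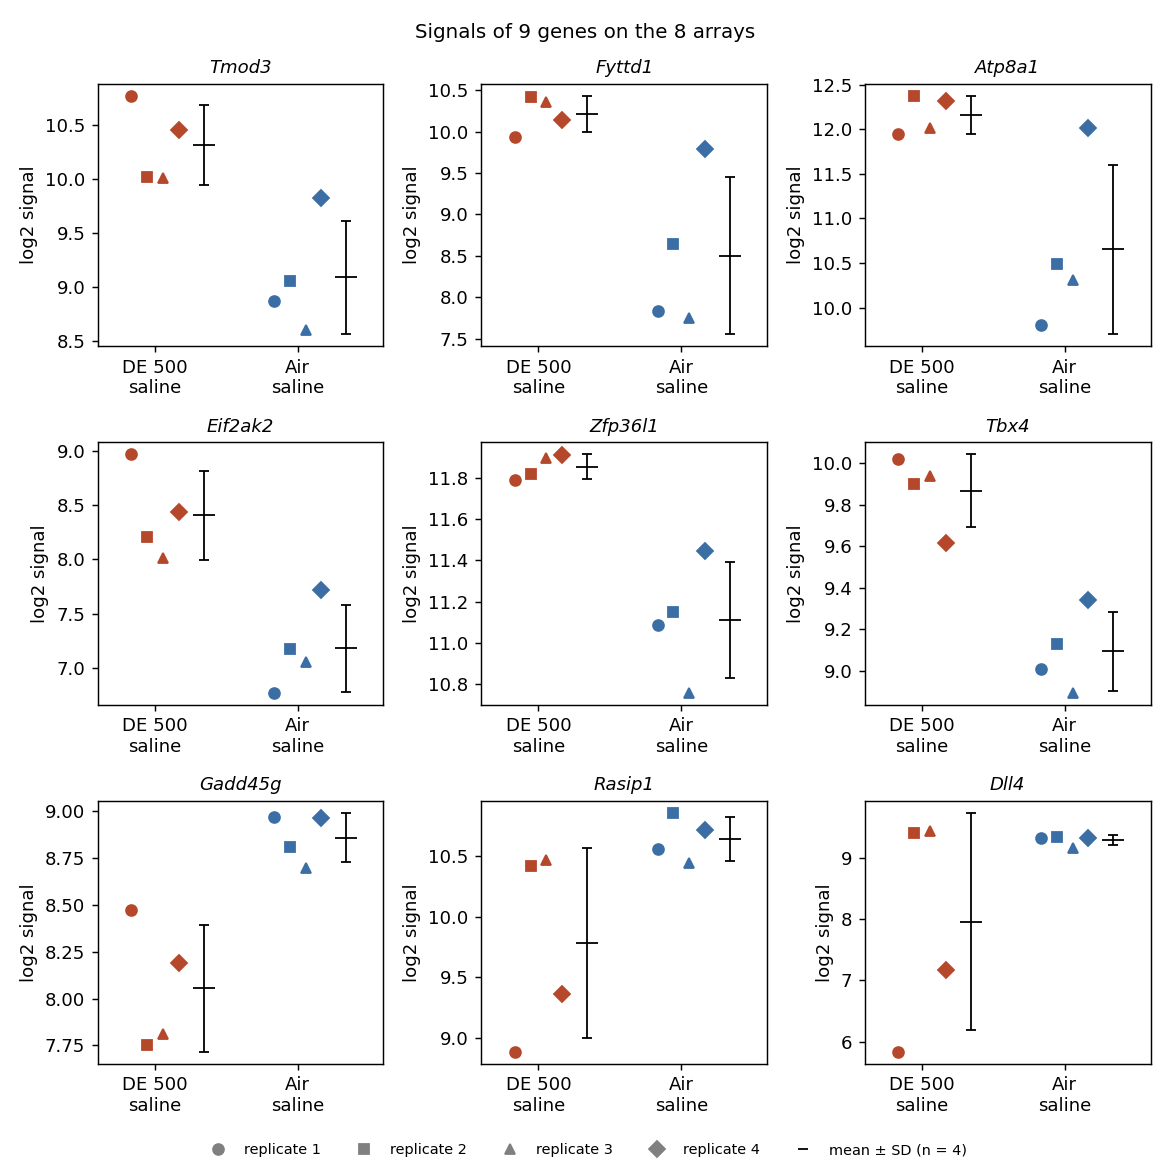
Log2 signals of 9 genes on the 8 arrays, DE500_saline left of Air_saline. Each point is 1 array, its shape gives the replicate number, and bars are the mean ± SD (n = 4). In Tmod3, Fyttd1, Eif2ak2, Zfp36l1 and Tbx4 the groups do not overlap and Air_saline replicate 4 is the highest air array, while Rasip1 and Dll4 are lowest in DE500_saline replicates 1 and 4.

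The other genes that rose with the ratio in the model included proteins of the cell surface and of junctions. Cxadr, the coxsackie and adenovirus receptor of tight junctions, rose by 1.15 ± 0.23 (adjusted p = 0.0263), and the adhesion molecule Alcam by 0.95 ± 0.20 (adjusted p = 0.0357). Adam17, the protease that sheds TNF and EGF receptor ligands from the membrane, rose by 0.83 ± 0.16 (adjusted p = 0.0246), with 9.15, 9.68, 9.45 and 8.84 in DE500_saline and 8.18, 8.81, 8.26 and 8.83 in Air_saline. For Adam17 the groups touched without overlapping, at 8.84 and 8.83. Nectin3, an adhesion molecule of adherens junctions, rose by 0.46 ± 0.11 (adjusted p = 0.0492) with its groups apart; it and Mapre2 are named after their values were seen, to complete the 17 rises.

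The remaining rises were Rnft1, a membrane ubiquitin ligase (0.93 ± 0.20), Mgat2, which builds N-glycan branches in the Golgi (0.61 ± 0.14), Plaa, a ubiquitin-binding partner of the ATPase VCP (0.49 ± 0.11), Mapre2, which binds growing microtubule ends (0.43 ± 0.08), Lrrc58 (0.78 ± 0.16) and Endod1 (0.73 ± 0.16), with adjusted p from 0.0233 to 0.0492. The second probe set of Endod1 was also called, at 1.55 ± 0.29 (adjusted p = 0.0233). Lrrc58, Rnft1 and Mgat2 had slopes of -0.35, -0.32 and -0.31 per log2 unit of ratio, and their DE500_saline replicates 1 and 4 were below replicates 2 and 3. Lrrc58, for example, read 9.74, 11.02, 11.65 and 10.02 in DE500_saline and 9.77, 10.27, 9.50 and 10.34 in Air_saline, and the 2 low DE500_saline arrays lay within the air range. Without the ratio its difference was 0.63 ± 0.28 (adjusted p = 0.573).

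Among the 10 genes that fell with the ratio in the model, Gadd45g and Hadha were low in every DE500_saline array. Gadd45g, a growth arrest gene of stress and cytokine responses, read 8.47, 7.75, 7.81 and 8.19 in DE500_saline, against 8.97, 8.81, 8.70 and 8.96 in Air_saline. It fell by 0.86 ± 0.20 with the ratio (adjusted p = 0.0459), and the difference without it was -0.81 ± 0.22 (adjusted p = 0.239). Hadha, the alpha subunit of the mitochondrial enzyme complex of fatty acid oxidation, read 9.60, 10.40, 10.24 and 9.77 in DE500_saline and 10.55, 10.61, 10.58 and 10.47 in Air_saline. Its groups did not overlap, and it fell by 0.50 ± 0.11 (adjusted p = 0.0357), against -0.55 ± 0.14 without the ratio (adjusted p = 0.225).

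Other falls sat in the 2 DE500_saline arrays with high ratios. Dll4, a Notch ligand of endothelium, read 5.84, 9.41, 9.44 and 7.16 in DE500_saline and 9.33, 9.34, 9.17 and 9.34 in Air_saline. Only replicates 1 and 4 were low, and replicates 2 and 3 were above all air arrays. The model with the ratio gave a fall of -1.06 ± 0.24 (adjusted p = 0.0459), with a slope of -0.67 per log2 unit of ratio, and the model without it gave -1.33 ± 0.51 (adjusted p = 0.460). The call with the ratio was lost without any single DE500_saline array (adjusted p from 0.0558 to 0.175) and without Air_saline replicates 1 or 3 (0.142 and 0.228). With DE500_saline replicates 1 and 4 left out together, Dll4 without the ratio gave 0.13 (adjusted p = 0.838). The second probe set of Dll4 gave 0.12 ± 0.17 with the ratio (adjusted p = 0.807).

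Rasip1, an endothelial partner of Ras and Rap GTPases, read 8.89, 10.42, 10.47 and 9.37 in DE500_saline and 10.56, 10.86, 10.44 and 10.72 in Air_saline. Here too replicates 1 and 4 were lowest, and replicates 2 and 3 were near the lowest air arrays. With the ratio it fell by 0.73 ± 0.11 (adjusted p = 0.00905), with an adjusted p of 0.0880 without Air_saline replicate 3. Without the ratio the difference was -0.86 ± 0.25 (adjusted p = 0.262). Epn2, an endocytic adaptor, and Jph2, which ties the sarcoplasmic reticulum to the plasma membrane of muscle, were also lowest in DE500_saline replicates 1 and 4 and fell by 0.72 ± 0.16 and 0.77 ± 0.18 with the ratio (adjusted p = 0.0375 and 0.0459). The probe sets of Epn2 disagreed, since its other one gave 0.88 ± 0.28 with the ratio and 0.86 ± 0.29 without it (adjusted p = 0.135 and 0.360).

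The remaining 4 falls ran the other way along the ratio, with DE500_saline replicates 2 and 3 lowest. Itpr2, a calcium channel of the endoplasmic reticulum, fell by 0.67 ± 0.13 (adjusted p = 0.0246), and Safb2, a nuclear RNA-binding scaffold protein, by 0.54 ± 0.12 (adjusted p = 0.0459). Myh14, a nonmuscle myosin heavy chain, fell by 0.54 ± 0.12 (adjusted p = 0.0490) and Wars, the tryptophanyl-tRNA synthetase, by 0.47 ± 0.10 (adjusted p = 0.0357). Safb2 read 10.45, 9.21, 9.04 and 10.33 in DE500_saline and 10.10, 10.14, 10.66 and 9.78 in Air_saline, and its difference without the ratio was -0.41 ± 0.25 (adjusted p = 0.751). Replicates 1 and 4 of DE500_saline thus lay within the air range of Safb2, and replicates 2 and 3 below it. Of the other probe sets of Safb2, 1 gave -0.36 ± 0.18 and 1 gave 0.71 ± 0.40 with the ratio (adjusted p = 0.375 and 0.433). The 3 others of Itpr2 gave -0.25, 0.04 and 0.31 with the ratio (adjusted p from 0.421 to 0.961).

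**Figure D3:**
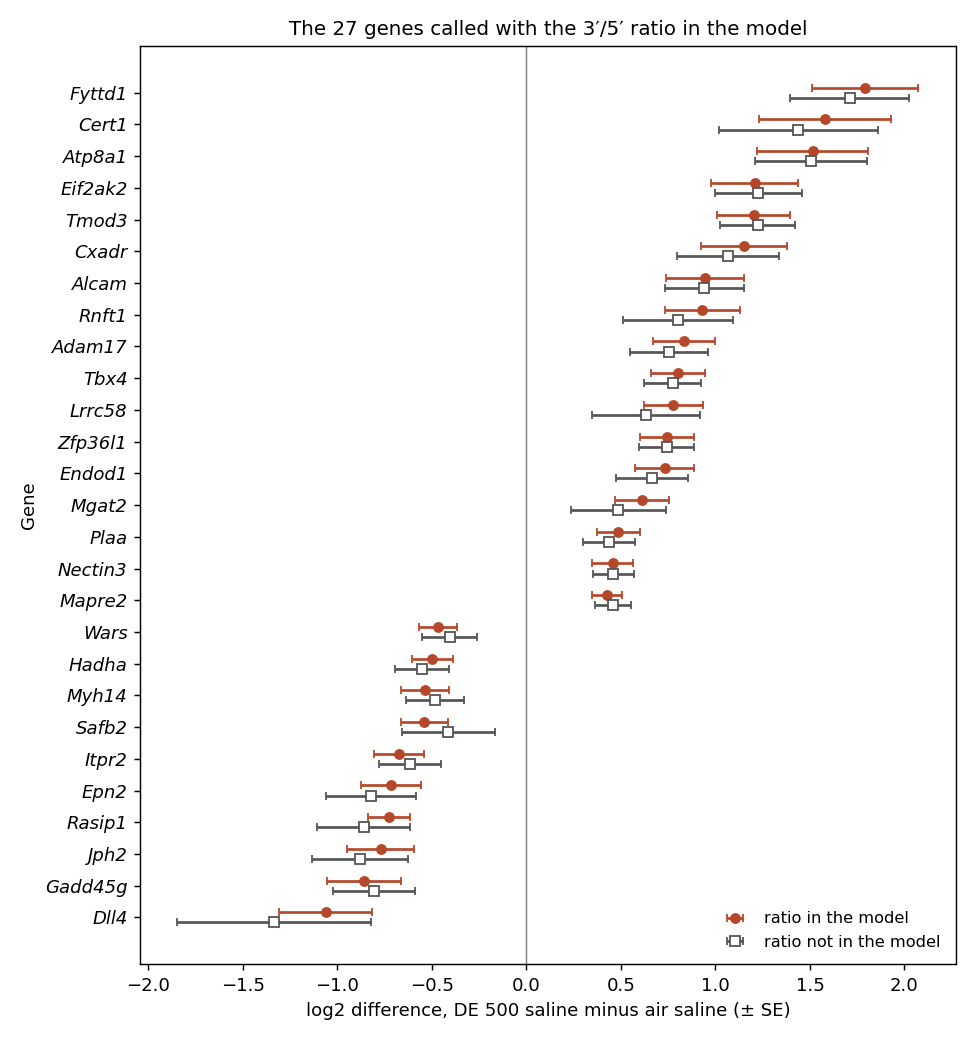
Log2 differences (DE500_saline minus Air_saline, ± SE) of the 27 genes called with the 3'/5' ratio in the model, from the model with the ratio (filled circles) and without it (open squares). The 17 rises reach 1.79 in Fyttd1 and the 10 falls reach -1.06 in Dll4, and the SE of Dll4 is 0.24 with the ratio and 0.51 without it.

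The 75 probe sets called with the ratio were in many cases not the main readout of their gene. Of the 70 that name 1 gene (68 distinct genes), 27 were the most strongly expressed probe set of that gene and 43 were not, of which 35 were higher and 8 lower. Over all tested probe sets of 1 gene, 66.6% were the most strongly expressed. For 57 of the 75 the gene had other tested probe sets, 112 in all. Of those 112, 81 had the same sign, all of a gene's others shared the sign for 37 of the 57, and another was called for 4. Groups did not overlap for 27 of the 75 (21 higher, 6 lower), where over all 13576 probe sets DE500_saline lay wholly above air for 219 (1.61%) and wholly below for 250 (1.84%).

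Examples of such probe sets, chosen after their values were seen, had wide ranges within a group. A secondary probe set of Pip4k2a, a phosphoinositide kinase, read 7.94, 8.42, 8.63 and 8.03 in DE500_saline and 3.91, 6.81, 4.82 and 8.09 in Air_saline (2.47 ± 0.52 with the ratio, adjusted p = 0.0319), while the 2 others of the gene gave -0.13 and -0.04. A secondary probe set of the kinase Mknk2 read 2.86, 9.32, 10.42 and 4.26 in DE500_saline and 9.65, 9.96, 9.25 and 9.16 in Air_saline (-2.24 ± 0.40 with the ratio, adjusted p = 0.0233), while its main probe set gave -0.23 ± 0.12 (adjusted p = 0.413). For Cp, the copper-carrying ferroxidase ceruloplasmin, 1 of 7 probe sets was called, at 1.38 ± 0.26 with the ratio (adjusted p = 0.0233), and the other 6 lay between -0.46 and 0.18. In Pip4k2a it was the air arrays that ranged widely, and in Mknk2 the DE500_saline arrays with high ratios.

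The number of calls depended on single arrays. With the ratio in the model, 3, 39 and 7 probe sets were called without DE500_saline replicate 1, 3 or 4. Leaving out Air_saline replicates 1, 2 or 3 gave 1, 28 and 0 calls, and leaving out Air_saline replicate 4 gave 340 (257 higher, 83 lower). Without the ratio the same omission gave 101 calls (94 higher, 7 lower) in place of 1. Without DE500_saline replicates 1 and 4 together, 3 probe sets were called without the ratio and 0 with it, with 741 at unadjusted p < 0.05 with the ratio. When only the 8 arrays of the 2 groups were fitted, 0 probe sets were called by limma in either model, with 710 at unadjusted p < 0.05 without the ratio and 2124 with it. Scaling the arrays to a common median gave 49 higher and 27 lower calls with the ratio, in place of 56 and 19.

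Promoter sequences were read for the called genes, to show which known response motifs lie beside them. RefSeq (build GRCm38.p6) gave the 300 bases from 250 before to 50 after the gene start for 21 of the 27. The core motif of the aryl hydrocarbon receptor, GCGTG on either strand, occurred in 15 of the 21 (71.4%), against 51.7% of the promoters of 6745 tested genes and 32.4% of 32851 promoters in all. The called genes' promoters had a median G+C content of 64.7%, against 61.0% for tested genes. TGACNNNGC, the core of the antioxidant element, occurred in 2 of 21 (14.4% of tested genes), the interferon element in 1 (3.17%) and TGTTCT of the glucocorticoid element in 1 (12.3%). No test was made of these shares, and a match does not show binding.

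The following promoters show the largest rise among called genes, the rise with an interferon element, a fall with an antioxidant core, and the textbook receptor target that was not called; each is written 5' to 3' on the gene's strand with motif matches in capitals. Fyttd1 (chr16:32877534-32877833, plus strand) holds 4 matches of GCGTG, of which 2 overlap by their shared G. Eif2ak2 (chr17:78882523-78882822, minus strand) holds CACGC, the reverse complement of GCGTG, and the interferon element. Gadd45g (chr13:51846425-51846724, plus strand) holds TGACNNNGC on the reverse strand. Cyp1a1 (chr9:57697363-57697662, plus strand) holds 1 match of GCGTG in this window.
Fyttd1: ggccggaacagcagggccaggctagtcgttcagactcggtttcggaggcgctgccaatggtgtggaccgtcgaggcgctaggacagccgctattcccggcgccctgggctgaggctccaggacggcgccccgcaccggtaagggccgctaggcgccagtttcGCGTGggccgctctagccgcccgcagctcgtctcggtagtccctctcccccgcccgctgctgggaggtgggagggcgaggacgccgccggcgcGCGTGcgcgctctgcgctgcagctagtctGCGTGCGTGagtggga
Eif2ak2: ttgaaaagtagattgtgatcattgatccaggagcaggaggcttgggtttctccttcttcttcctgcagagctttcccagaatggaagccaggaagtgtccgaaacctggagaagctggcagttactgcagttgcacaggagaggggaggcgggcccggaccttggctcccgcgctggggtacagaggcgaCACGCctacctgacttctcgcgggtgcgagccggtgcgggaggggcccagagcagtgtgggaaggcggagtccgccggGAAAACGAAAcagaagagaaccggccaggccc
Gadd45g: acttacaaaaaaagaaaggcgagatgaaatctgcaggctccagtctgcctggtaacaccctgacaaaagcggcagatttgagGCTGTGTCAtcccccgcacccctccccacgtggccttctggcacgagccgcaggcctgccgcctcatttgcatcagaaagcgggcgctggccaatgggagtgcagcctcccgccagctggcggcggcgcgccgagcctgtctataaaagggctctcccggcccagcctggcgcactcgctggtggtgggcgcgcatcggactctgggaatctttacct
Cyp1a1: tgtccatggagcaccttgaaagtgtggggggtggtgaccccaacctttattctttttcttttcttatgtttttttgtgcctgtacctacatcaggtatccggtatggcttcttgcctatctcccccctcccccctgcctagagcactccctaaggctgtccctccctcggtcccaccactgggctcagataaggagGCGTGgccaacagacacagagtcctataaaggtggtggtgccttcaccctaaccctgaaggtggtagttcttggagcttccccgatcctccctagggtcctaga

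Genes known to answer diesel exhaust were not called at the lower dose in either model. Cyp1a1, which oxidizes polycyclic hydrocarbons, read 7.43, 8.20, 8.30 and 7.10 in DE500_saline and 8.11, 7.87, 7.94 and 8.33 in Air_saline, with the groups overlapping. Its difference was -0.31 ± 0.28 (adjusted p = 0.882), and -0.23 ± 0.25 with the ratio (adjusted p = 0.718). Cyp1b1, of the same enzyme family, gave 0.05 ± 0.20 and Tiparp, a receptor-induced ADP-ribosyltransferase, -0.23 ± 0.17 (adjusted p = 0.984 and 0.820). The receptor itself, Ahr, gave 0.35 ± 0.17 and the aldehyde dehydrogenase Aldh3a1 -0.35 ± 0.20 (adjusted p = 0.645 and 0.744). Of the 6 genes tested in the list of receptor targets, which includes Ahr itself, 3 lay above 0 (median -0.09). Over all 8315 genes 3657 did (44.0%, median -0.03). Ahrr, the receptor's repressor, was too dim to be tested.

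NRF2 targets were likewise without a call, with 8 of 21 above 0 (median -0.09). Gclc, the catalytic subunit of the rate-limiting enzyme of glutathione synthesis, read 10.52, 11.01, 10.71 and 10.49 in DE500_saline, against 10.15, 10.25, 9.83 and 10.63 in Air_saline. All DE500_saline arrays were above air replicates 1 to 3 and air replicate 4 lay among them. The difference was 0.47 ± 0.19 (adjusted p = 0.487), and 0.52 ± 0.16 with the ratio (adjusted p = 0.123). Its partner subunit Gclm gave -0.10 ± 0.27, the heme oxygenase Hmox1 0.36 ± 0.47, the sulfiredoxin Srxn1 0.08 ± 0.19 and the thioredoxin reductase Txnrd1 -0.10 ± 0.13 (adjusted p from 0.928 to 0.976). The glutathione reductase Gsr gave 0.35 ± 0.17 and the epoxide hydrolase Ephx1 -0.29 ± 0.14 (adjusted p = 0.641 and 0.617). Nqo1, a quinone reductase, was too dim to be tested.

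Glutathione transferases and peroxidases lay mostly below 0. Of 25 tested, 6 were above 0 (median -0.14), none was called, and 5 were lower at unadjusted p < 0.05. Over all 8315 genes, 44.0% lay above 0 and 4.53% were lower at that level. Gpx4, which reduces lipid peroxides, gave -0.47 ± 0.16 and averaged 11.62 ± 0.10 in DE500_saline against 12.09 ± 0.19 in Air_saline (SD, n = 4 each), with the groups apart (adjusted p = 0.376). The transferases Gstm1 and Gstm2 gave -0.34 ± 0.11 and -0.47 ± 0.16 (adjusted p = 0.345 and 0.384), and the plasma peroxidase Gpx3 -0.27 ± 0.11 (adjusted p = 0.508). Of 14 cytochromes P450 and flavin monooxygenases 4 lay above 0 (median -0.10). The highest, the lung flavin monooxygenase Fmo2, averaged 11.05 ± 0.11 in DE500_saline and 10.27 ± 0.31 in Air_saline with no overlap (0.78 ± 0.25, adjusted p = 0.337).

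Inflammatory genes, each read through its most strongly expressed probe set, were also not called. Saa3, the amyloid A protein that inflamed tissue makes itself, read 8.02, 6.50, 7.59 and 7.95 in DE500_saline and 7.54, 7.49, 7.86 and 6.79 in Air_saline, fully overlapping (0.09 ± 0.48, adjusted p = 0.987). Lcn2, a lipocalin that keeps iron from bacteria, gave -0.12 ± 0.18, Pigr, which carries IgA across epithelium, -0.24 ± 0.22, and the bactericidal lectin Reg3g 0.12 ± 0.75 (adjusted p from 0.882 to 0.989). Of 9 acute phase genes 3 lay above 0 (median -0.06). Of 10 neutrophil markers 2 did (median -0.10), with -0.38 ± 0.30 for the surface glycoprotein Cd177, -0.12 ± 0.31 for S100a8 and 0.08 ± 0.32 for S100a9, the 2 calprotectin subunits. The summed signal of the 10 ranged from 4644 to 7693 in DE500_saline and from 5221 to 8104 in Air_saline. Among 5 cytokines and chemoattractants bright enough to test, Il1b gave 0.21 ± 0.22 (adjusted p = 0.905), while Tnf, Cxcl1, Cxcl2, Cxcl5 and Ccl2 were too dim. The metallothioneins Mt1 and Mt2, which bind zinc and cadmium, gave -0.30 ± 0.26 and -0.35 ± 0.22 (adjusted p = 0.871 and 0.769).

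Gene lists described by counts stood on both sides of the median of all genes. Over all 8315 genes 44.0% lay above 0, the share beside which these and the later list counts stand. Immediate early genes, transcription factors switched on within minutes of a stimulus, had 11 of 15 values above 0 (median 0.185). Of these 3 had unadjusted p < 0.05, where 2.77% of all genes were higher at that level, and none was called. Klf6 averaged 10.90 ± 0.09 in DE500_saline and 10.56 ± 0.12 in Air_saline with no overlap (0.34 ± 0.12, adjusted p = 0.380), and Jund, Ier3 and Egr1 gave 0.35, 0.40 and 0.28. Glucocorticoid-responsive genes had 4 of 25 above 0 (median -0.22). Gadd45g was the 1 call among them, with the ratio, and the clock gene Per1 (-0.39 ± 0.16), Errfi1, an inhibitor of the EGF receptor (-0.54 ± 0.23), and the transcription factor Klf15 (-0.59 ± 0.31) followed it without a call (adjusted p from 0.487 to 0.674).

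Most genes of oxidative phosphorylation and most ribosomal protein genes had values below 0. Of 53 oxidative phosphorylation genes 8 lay above 0 (median -0.10; -0.15 with the ratio), none was called, and Uqcrc2 and Uqcrc1, core proteins of complex III, gave -0.28 ± 0.11 and -0.33 ± 0.16 (adjusted p = 0.487 and 0.624). Of 29 ribosomal protein genes 7 lay above 0 (median -0.05). Rplp0 and Rps19 gave -0.27 ± 0.12 and -0.31 ± 0.14 with groups that did not overlap (adjusted p = 0.558 and 0.559), while Rps6 gave 0.41 ± 0.22. Of 24 genes of mRNA export and the nuclear pore 10 lay above 0 (median -0.03), and beside Fyttd1 the nuclear pore protein Nup50 gave -0.67 ± 0.24 (adjusted p = 0.405). Of 26 actin filament genes 11 lay above 0 (median -0.06), with Tmod3 the 1 call and the actin-binding profilin Pfn1 at -0.92 ± 0.28 (adjusted p = 0.277). Of 10 flippases and scramblases 6 lay above 0 (median 0.01), and Atp8a1 was the 1 call. The lists of flippases, actin filaments, mRNA export, mRNA decay and double-stranded RNA sensing were written with earlier results of these data known. That each holds 1 called gene is therefore no separate finding.

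**Figure D4:**
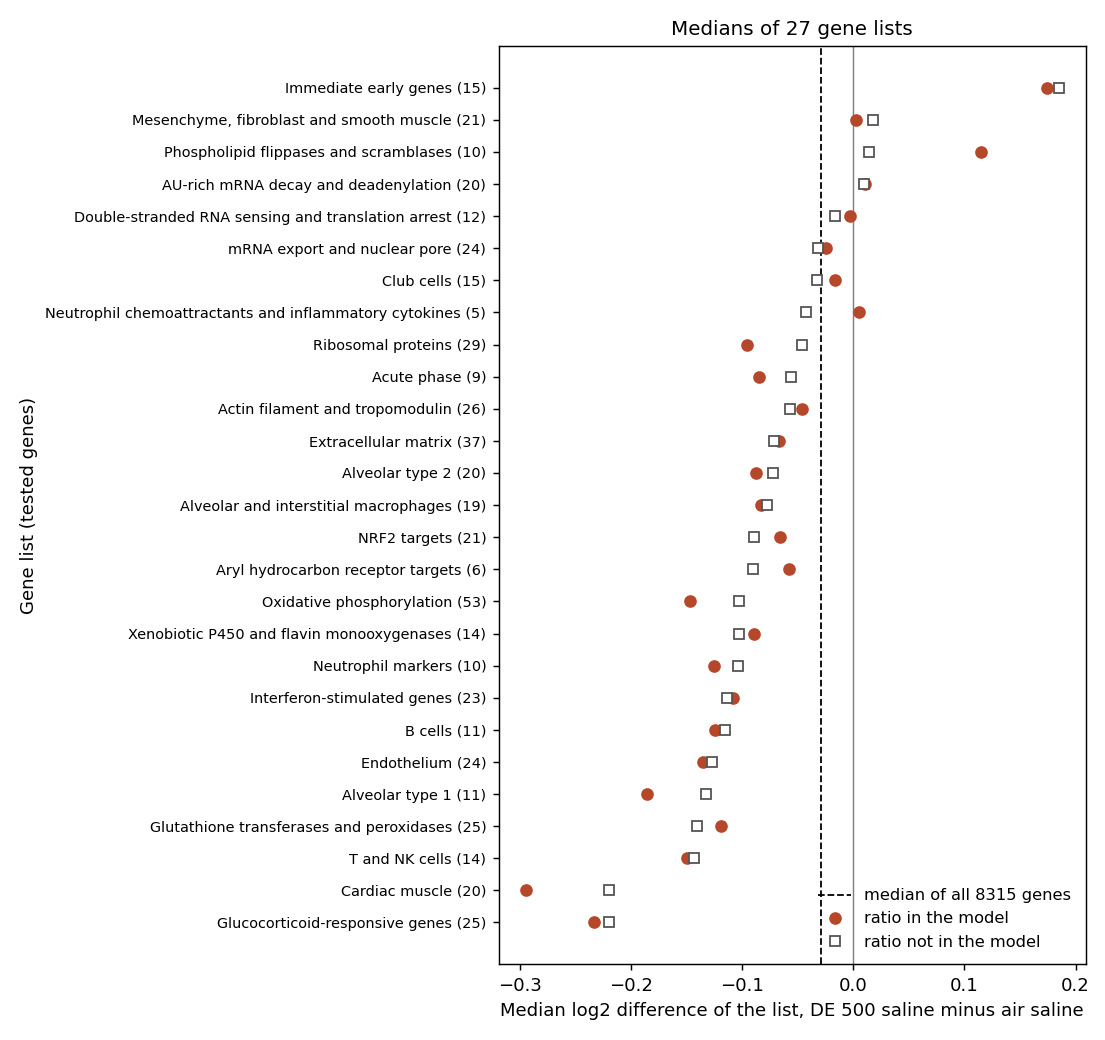
Median log2 difference (DE500_saline minus Air_saline) of 27 gene lists, with the number of tested genes in brackets, from the model with the 3'/5' ratio (filled circles) and without it (open squares). The dashed line is the median of all 8315 genes, -0.03. Immediate early genes lie highest at 0.185, and glucocorticoid-responsive and cardiac muscle genes lowest at -0.22 without the ratio.

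Lists of lung cell type markers had medians between -0.13 and 0.02, and in whole lung fewer cells of a type and less RNA per cell cannot be told apart. Endothelial genes had 7 of 24 values above 0 (median -0.13). Their summed signal ranged from 84104 to 89863 in DE500_saline and from 90134 to 104208 in Air_saline, without overlap. Other cell type lists were summed too, and the groups overlapped in each of those. Of single tested probe sets, 1.84% lay wholly below air. No endothelial gene of the list was called. Eng, a TGF-beta coreceptor, gave -0.66 ± 0.18, and the angiotensin-converting enzyme Ace -0.36 ± 0.13 (adjusted p = 0.259 and 0.436). The receptor Calcrl was higher, at 0.28 ± 0.12 (adjusted p = 0.539). Whether these values bear on Dll4 and Rasip1 was not tested. Alveolar type 2 genes had 5 of 20 above 0 (median -0.07) and type 1 genes 2 of 11 (median -0.13). Cebpa, a transcription factor of type 2 cells, gave -0.42 ± 0.15 with groups apart (adjusted p = 0.393), and Clic3 of type 1 cells gave -0.44 ± 0.16 (adjusted p = 0.405). Club cell genes had 7 of 15 above 0 (median -0.03).

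Immune and muscle markers gave no call either. Macrophage genes had 4 of 19 above 0 (median -0.08), and the complement component C1qa gave -0.73 ± 0.26 (adjusted p = 0.402). B cell genes had 0 of 11 above 0 (median -0.12), and T and NK cell genes 4 of 14 (median -0.14). Cardiac muscle genes had 2 of 20 above 0 (median -0.22; -0.295 with the ratio), led by the oxygen-binding protein Mb at -0.935 ± 0.47 (adjusted p = 0.666). Their summed signal ranged from 16498 to 30918 in DE500_saline and from 22641 to 30427 in Air_saline, and their part in the fall of Jph2 was not tested. Extracellular matrix genes had 9 of 37 above 0 (median -0.07), with Lama4, a laminin chain of vessel walls, at -0.40 ± 0.12 (adjusted p = 0.271). The probe sets of Lama4 disagreed. Its other one gave 0.64 ± 0.16 (adjusted p = 0.205), and with the ratio it was called higher at 0.67 ± 0.16 (adjusted p = 0.0490). The remaining 22 of 49 lists held no called gene in either model, and the medians of the 20 with at least 5 tested genes lay between -0.15 and 0.08.

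The higher dose separated from the lower one in the inflammatory genes. In DE2000_saline against DE500_saline, 7 probe sets were called without the ratio (0.0516%), all higher at the higher dose. Cd177 averaged 9.50 ± 0.43 in DE2000_saline and 6.73 ± 0.23 in DE500_saline (2.77 ± 0.30, adjusted p = 5.12e-05), and Saa3 10.15 ± 0.27 and 7.51 ± 0.70 (2.64 ± 0.48, adjusted p = 0.0293; SD, n = 4 each). Pigr differed by 1.67 ± 0.22 (adjusted p = 0.000440) and in a second probe set by 1.86 ± 0.23 (adjusted p = 0.000294), Lcn2 by 1.09 ± 0.18 (adjusted p = 0.00891), D17H6S56E-5 by 0.91 ± 0.14 (adjusted p = 0.00498) and a probe set of Cp by 1.07 ± 0.19 (adjusted p = 0.0195). None of these 7 probe sets was called in DE500_saline against air, though another probe set of Cp was called there with the ratio (1.38 ± 0.26, adjusted p = 0.0233). With the ratio in the model, 205 probe sets were called between the doses (1.51%), 47 higher and 158 lower in DE2000_saline, and without DE500_saline replicate 1 the 7 calls became 4.

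The genes called at the lower dose were not called between the doses in the model without the ratio. Against the same air arrays, which both doses share, 20 probe sets were called in DE2000_saline (0.147%). Tmod3 was 0.995 ± 0.20 there and 1.22 ± 0.20 in DE500_saline, Fyttd1 1.53 ± 0.31 and 1.71 ± 0.31, Tbx4 0.78 ± 0.15 and 0.77 ± 0.15, and Zfp36l1 0.38 ± 0.14 and 0.74 ± 0.14. Pgap2 was 1.15 ± 0.22 in DE2000_saline (limma, adjusted p = 0.0228) and 0.77 ± 0.22 in DE500_saline, where it was not called (adjusted p = 0.259). Because the air arrays are common to both differences, their likeness is not independent. Of the 75 probe sets called with the ratio, 10 also differed between the doses with the ratio (adjusted p < 0.05), among them Lrrc58 (-0.80), Rnft1 (-0.97), Itpr2 (0.71), Wars (0.57) and Myh14 (0.59), given as DE2000_saline minus DE500_saline. Those 5 genes were near their air level at the higher dose, with DE2000_saline means of 9.99, 6.95, 10.10, 11.92 and 12.24 against 9.97, 6.95, 10.08, 11.84 and 12.21 in Air_saline. The 75 were chosen on DE500_saline arrays that the contrast between doses also uses. Their differences between doses are therefore no separate support for an effect of the lower dose alone.

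In mice given OVA, DE at 500 ug/m3 gave no call against air. There 0 of 13576 probe sets passed in limma (0%) and 125 had unadjusted p < 0.05 (0.921%), on 8 other arrays. Of the 75 probe sets called in saline with the ratio, 46 had the same sign in OVA in that model, 0 had unadjusted p < 0.05 there, and the largest difference in size was 0.308. In the model without the ratio, Tmod3 differed by 0.02 ± 0.20 in OVA, Fyttd1 by 0.14 ± 0.31, Eif2ak2 by -0.06 ± 0.23 and Rasip1 by 0.01 ± 0.25. The Tmod3 means were 9.41 in DE500_OVA and 9.39 in Air_OVA, which lie between the means of 10.31 in DE500_saline and 9.09 in Air_saline. The arms also differed in the 3'/5' ratio. It ran from -0.04 to 0.20 over the Air_OVA and DE500_OVA arrays. In Air_saline it ran from 0.98 to 2.90, and in DE500_saline from 0.10 to 4.38. The part of the ratio in the contrast between the arms was not tested.

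The difference between the arms was tested as an interaction. In limma 0 of 13576 probe sets passed (0%), with 419 at unadjusted p < 0.05 (3.09%). Tmod3 gave an interaction of -1.21 ± 0.28 (limma, unadjusted p = 0.000255, adjusted p = 0.99962). The genes called in saline were chosen on arrays that this contrast also uses, so their unadjusted values are no separate support. Without Air_saline replicate 4, 10 probe sets passed. The effect in saline is thus not shown to differ from that in OVA at this number of arrays.

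**Figure D5:**
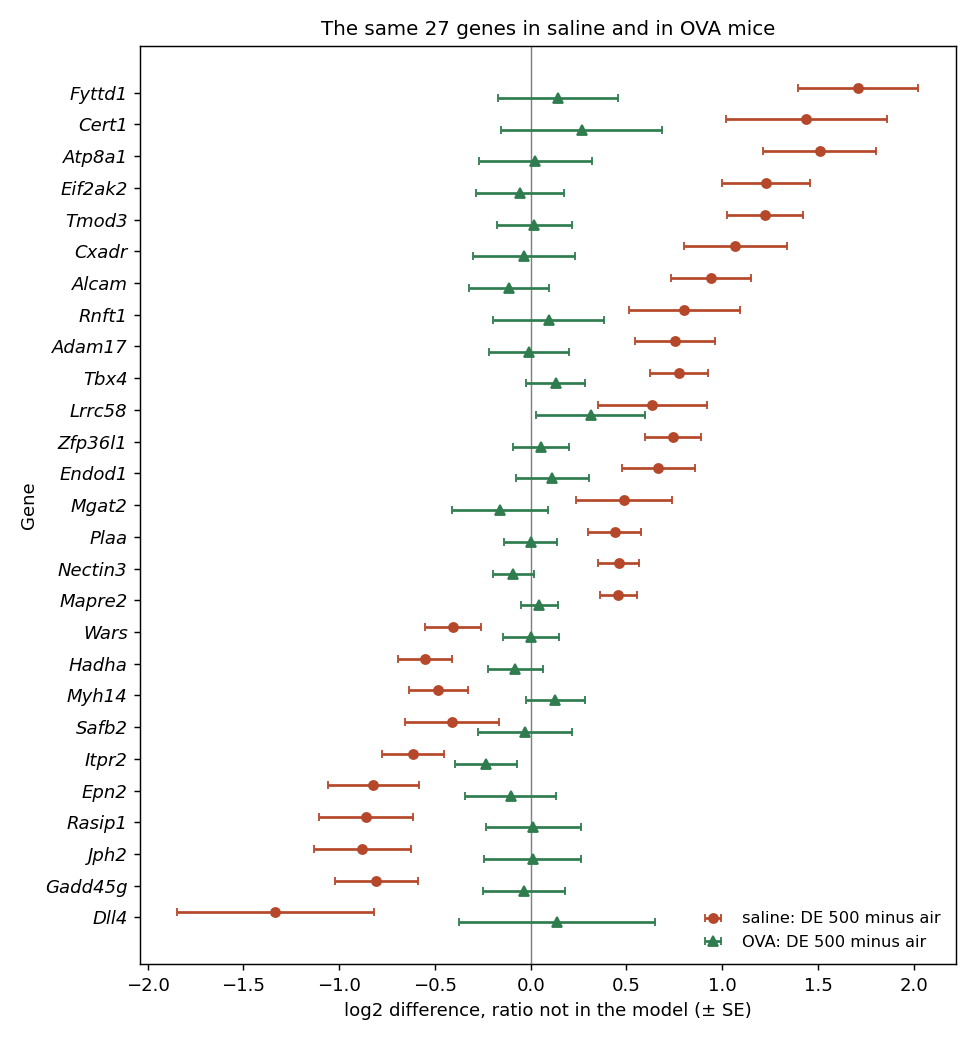
Log2 difference between DE at 500 ug/m3 and air in saline mice (circles) and in OVA mice (triangles) for the 27 genes called in saline with the 3'/5' ratio, from the model without the ratio (± SE, n = 4 arrays per group). In OVA the values lie between -0.23 and 0.31, while in saline they reach 1.71 in Fyttd1 and -1.33 in Dll4.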

How the data were processed

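Lung RNA from 24 samples in 6 groups of 4 was measured on Affymetrix MOE430A arrays. The authors deposited linear signal intensities, 1 for every probe set of an array, made with MAS5 per the submitters' processing notes (version: not given in the sources used here). On every array the trimmed mean is about 500, so the deposited intensities are already scaled, and the number of arrays limits the precision. Groups were taken from the sample titles.

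Intensities were used as log2 with no pseudocount. Probe sets with a mean log2 intensity below the 40th percentile (geometric mean 138) were left out, which kept 13576, of which 12489 name 1 gene, 438 several and 649 none in the platform annotation. A gene was read through its probe set of highest mean. limma 3.58.1 in R 4.3.3 (lmFit, eBayes with trend) fitted 6 group means over all 24 arrays, without the 3'/5' ratio (18 residual degrees of freedom) and with the mean Gapdh and actin ratio as a covariate (17), and p-values were adjusted by Benjamini-Hochberg over all tested probe sets at 0.05. The fit was tested on simulated data. Control measures were compared by exact permutation.

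Genes are named by rule: those called without the ratio, up to 15 rises and 15 falls with it, up to 4 members of each list by smallest unadjusted p, and a fixed set. The fixed set held exhaust-response genes and also Tmod3, Fyttd1, Eif2ak2, Zfp36l1, Atp8a1, Tbx4 and Pgap2. The members and lists were chosen with earlier results of these data known. Residuals of same-numbered arrays correlated at 0.10, 0.49, -0.38 and -0.22. The labels do not say whether the numbers pair the samples, and these few values cannot decide it. The main models used no pairing. Alternatives in scaling, filter, pseudocount, groups fitted, weights, covariate and arrays left out are given in the closing section.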

Additional observations from a re-analysis of the deposited data

Results flagged for a closer look

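Of 104 groups of 4 values examined, 4 held an array far from the others by Dixon's criterion, and chance flags about 1 group in 20. Txnrd1 was highest in DE500_saline replicate 2, at 10.47 against 10.08 for the nearest array. Dll4 was lowest in Air_saline replicate 3, at 9.171 against 9.334 for the nearest. Epn2 was lowest in Air_saline replicate 4, at 10.06 against 10.41, and Tiparp was lowest in Air_saline replicate 3, at 9.725 against 10.28. Dll4 and Epn2 were called only with the ratio in the model.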

How the results depend on the processing

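Without the ratio, the 1 call of DE500_saline against Air_saline became 0 with median scaling, with only the 2 groups or only the 3 saline groups fitted, with array weights and with no trend. It became 7 with a filter at the 60th percentile, 10 with a pseudocount of 50, 6 with 1 probe set per gene, 3 without DE500_saline replicates 1 and 4 together, 75 with the ratio and 23 with the B1 signal as covariate. Leaving out single arrays gave 0 to 101 calls, the 101 without Air_saline replicate 4. With the ratio, the 75 calls became 25 with no filter, 0 with only the 2 groups fitted, 3 with the 3 saline groups, 768 with array weights, 13 with 1 probe set per gene, 132 with the Gapdh ratio alone and 0 without DE500_saline replicates 1 and 4 together. Leaving out single arrays gave 0 to 340 calls, with 0 without Air_saline replicate 3 and 340 without replicate 4. The 7 calls between doses became 205 with the ratio and 4 to 7 without single arrays. The interaction had 0 to 10 calls, the 10 without Air_saline replicate 4. The cause of these changes was not tested.

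With the replicate number as a block, the counts were 1 without the ratio, 82 with it, 6 between doses and 0 for the interaction. Whether the numbers pair the samples is not known.

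List medians without DE500_saline replicates 1 and 4 together were 0.16 for aryl hydrocarbon receptor targets, -0.0053 for cytochromes P450, 0.18 for cytokines, 0.093 for double-stranded RNA sensing, 0.33 for flippases, -0.27 for ribosomal proteins, -0.12 for mRNA export, -0.23 and -0.29 for alveolar type 2 and type 1 cells, 0.15 for mesenchyme and -0.53 for cardiac muscle. The actin list gave -0.0011 with quantile normalization, -0.091 with median scaling and -0.077 to -0.020 without single arrays, and the T and NK list -0.33 to -0.084. Differences of the control measures without single arrays ranged from -0.15 to 1.46 for the Gapdh ratio, -0.53 to 0.71 for actin, -0.34 to 1.09 for their mean, -0.19 to 0.39 for B1 and -0.060 to 0.39 for the hybridization controls. Of 2007 pairs of a named gene and a setting, 1606 kept their side of the threshold and sign, 287 lost a call and 62 gained one, and 52 uncalled values changed sign. Dim probe sets were not tested, so a difference in them was not detectable here.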
